A study of Mus musculus with 18 samples.

Results

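The genes of the respiratory chain, nuclear and mitochondrial, were followed through RNA sequencing of 4 groups of mouse T cells. Members were taken by symbol: rows starting with Nduf, Uqcr, Atp5 or mt-, Cox4 to Cox8, and Sdha, Sdhb, Sdhc and Sdhd, without the 3 pseudogene rows marked -ps. The rule found 129 of 43280 rows, of which 92 were nuclear and 37 lay in the mitochondrial genome. The nuclear members were 36 subunits of complex I, 4 of complex II, 8 of complex III, 11 of complex IV and 15 of complex V, with 7 assembly factors (Ndufaf1 to Ndufaf7), 8 isoforms known from few tissues, and Cox7a2l, Atp5s and Atp5sl. The mitochondrial members were 13 protein-coding genes, 2 ribosomal RNAs and 22 tRNAs.

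The first 3 groups were differentiated in culture from Pmel induced pluripotent stem cells (iPSC): CD4+CD8+ cells (n = 3), iRTE (n = 5) and Artificial CD8 (n = 5). The fourth, splenic CD8 (n = 5), was naive CD8+ T cells taken directly from the spleen of transgenic mice. The study's design names OP9-DL1 stromal cells, which present a Notch ligand, for the CD4+CD8+ cells and 1 kind of CD8+ cell, and a 3D thymic culture for the other kind. The sample labels carry a single growth protocol with OP9-DL1, so that iRTE is the 3D thymic culture only by elimination. Every group was purified by flow cytometry for CD45, the coreceptors CD4 and CD8, and the alpha-beta receptor, and a dump gate removed cells with NK1.1, TCRgd or CD11c. Ages are not given in the labels used here.

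Complexes I to IV pass electrons from NADH and succinate to oxygen, and complexes I, III and IV pump protons across the inner mitochondrial membrane. Complex V, the ATP synthase, uses that gradient to make ATP. Complexes I, III, IV and V combine subunits of both genomes, made by different polymerases and ribosomes, whereas complex II is wholly nuclear. In T cells, oxidative phosphorylation is known to serve resting naive cells at a low level and to grow with activation and proliferation.

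Total counts per library ran from 11132768 to 19305751, so that 3 counts equal 0.155 to 0.269 CPM (counts scaled to library size). Levels are given as CPM after TMM scaling. The libraries held T cells by their defining markers: the summed level of Cd3d, Cd3e, Cd3g, Ptprc, Cd8a, Cd8b1 and Cd4 was 6621 to 7356 CPM in CD4+CD8+, 7809 to 9620 in iRTE, 4925 to 5440 in Artificial CD8 and 8177 to 8450 in splenic CD8. Cd4 was 224 ± 59.9 CPM (SD, n = 3) in CD4+CD8+, 4.41 ± 2.85 (SD, n = 5) in Artificial CD8 and at 0 in every iRTE library. Replicates of a group differed by more than counting noise in every pair. Whether replicates were separate cultures or mice is not said in the labels, and p-values therefore measure only the spread between these samples, which may be technical.

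Copies of mitochondrial genes in the nuclear genome limit what can be read from several mt- rows. Over the 18 libraries, mt-Cytb, the complex III subunit of the mitochondrial genome, had 570550 counts per kb of transcript, mt-Nd1 of complex I had 371910, and neither shared a 50-base word with another annotated transcript. In contrast, mt-Co2 of complex IV had 2339 counts per kb and shared 100% of its words, mt-Co3 had 3842 and shared 99.9%, and mt-Atp6 of complex V had 1959 and shared 99.5%. All of these genes are read from the same strand of the same genome, and the last 3 rows lay far below mt-Cytb per length. The copies themselves took counts: Gm28661 had 1753 against 1600 for mt-Co2, Gm10925 had 5345 against 1334 for mt-Atp6, and Gm28437 had 3949 against 3012 for mt-Co3. Each of the 3 copies had 0 mismatches over its aligned length. The handling of reads that match several places is not given in the sources used here, and its part in these counts was not tested.

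The catalytic subunit mt-Co1 stood between these cases only in sharing, with 51.1% of its words shared. Its 585070 counts per kb were above those of mt-Cytb. Of the 3 genes that shared words with it, the copy Gm29216 shared the most, 28.7%. This copy differed at 1 of 483 aligned bases and had 4614 counts in all, against 903930 for mt-Co1. The stretch around that difference shows how alike the gene and its copy are. It is given from transcript positions 1063 to 1122 of mt-Co1 and 10 to 69 of Gm29216 (GENCODE M21 transcripts on GRCm38, 5′ to 3′), with the differing base in capitals.
mt-Co1: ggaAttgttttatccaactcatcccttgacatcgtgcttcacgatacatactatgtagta
Gm29216: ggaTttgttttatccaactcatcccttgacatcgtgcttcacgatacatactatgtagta
The rows for mt-Nd3 and mt-Nd4l shared 98% and 98.8% of their words, and mt-Nd4 shared 62.2%. For mt-Nd5, mt-Nd2 and mt-Rnr2 the shares were 7.61%, 8.19% and 1.04%, and mt-Rnr1 and mt-Nd6 shared none. The single mitochondrial genes reported below are therefore mainly mt-Nd1, mt-Nd2, mt-Cytb, mt-Co1 and the 2 ribosomal RNAs. The genes mt-Nd5 and mt-Nd6 are also drawn in a figure. Counts and medians over the mitochondrial members take in every tested row, shared or not. Among nuclear members, 48 of the 91 with a transcript shared under 1% and 16 shared at least 20%, led by Atp5l at 84.8% and Atp5h at 47.9%.

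**Figure D1:**
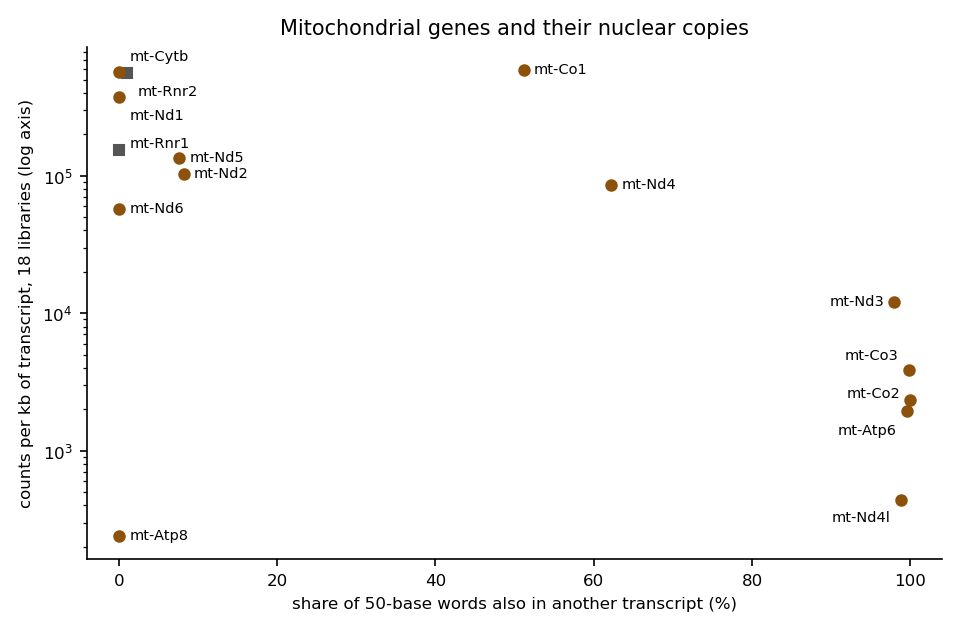
Counts per kb of transcript summed over 18 libraries (y axis, log scale) against the share of 50-base words that also occur in another transcript (x axis, %), 1 point per mitochondrial protein-coding or ribosomal RNA gene. Genes near 100% sit far below mt-Cytb at 0%, and mt-Atp8, which shares none, is also low with 49 counts in all.

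The nuclear genes have promoters of their own, and a few carry cores of factors known to regulate respiratory genes. RefSeq promoter windows (GRCm38.p6, 250 bases before to 50 after the start) were matched for 76 of the 92 nuclear members and searched on both strands for GCGCATGCG (NRF1), CCGGAAGT (ETS factors such as GABP) and AAGATGGC (YY1), none of which contains another. The NRF1 core was in 10 members, or 13.2%, against 1.95% of 27025 genes, the ETS core in 5, or 6.58%, against 4.31%, and the YY1 core in 11, or 14.5%, against 3.19%. A match is a run of letters and not a measured site. The 250 bases before the start are shown for 1 member of each complex with subunits in both genomes, with the core in capitals. These are Ndufa8 of complex I (chr2:36049339-36049588, minus strand), Uqcr11 of complex III (chr10:80406822-80407071, minus strand), Cox6a1 of complex IV (chr5:115348959-115349208, minus strand) and Atp5g2 of complex V (chr15:102671048-102671297, minus strand).
Ndufa8: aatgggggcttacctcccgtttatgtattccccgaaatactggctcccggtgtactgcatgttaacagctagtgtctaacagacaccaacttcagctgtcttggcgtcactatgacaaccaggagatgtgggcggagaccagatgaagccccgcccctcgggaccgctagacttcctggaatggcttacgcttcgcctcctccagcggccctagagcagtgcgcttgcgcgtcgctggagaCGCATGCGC
Uqcr11: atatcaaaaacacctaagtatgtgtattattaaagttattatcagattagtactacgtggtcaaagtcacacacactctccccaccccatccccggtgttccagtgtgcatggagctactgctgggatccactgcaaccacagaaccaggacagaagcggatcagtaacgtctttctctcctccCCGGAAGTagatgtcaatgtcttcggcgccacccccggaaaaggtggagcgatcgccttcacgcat
Cox6a1: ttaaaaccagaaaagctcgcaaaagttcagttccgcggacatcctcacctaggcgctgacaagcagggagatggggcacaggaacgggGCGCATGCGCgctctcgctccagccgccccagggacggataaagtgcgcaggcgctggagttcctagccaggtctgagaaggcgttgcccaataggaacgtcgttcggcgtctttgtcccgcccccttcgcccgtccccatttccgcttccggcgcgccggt
Atp5g2: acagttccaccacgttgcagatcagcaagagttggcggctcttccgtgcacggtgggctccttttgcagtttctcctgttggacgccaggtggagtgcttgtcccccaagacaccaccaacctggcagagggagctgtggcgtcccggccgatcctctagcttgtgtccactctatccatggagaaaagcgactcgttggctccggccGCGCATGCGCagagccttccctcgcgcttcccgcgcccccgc
In Uqcr11 the capitals mark the ETS core, and its NRF1 core does not lie wholly within the printed bases. In the other three the capitals mark the NRF1 core, merged with its overlapping reverse-strand match where both strands hold it. These 4 genes were higher in both in vitro CD8 groups than in splenic CD8, with log2 fold changes of 1.23 and 0.76 for Ndufa8, 1.19 and 1.06 for Uqcr11, 1.45 and 1.17 for Cox6a1, and 1.59 and 1.07 for Atp5g2 (iRTE first, Artificial CD8 next).

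Nuclear respiratory genes were lowest in splenic CD8 in all 5 complexes, and no splenic library reached the lowest library of any other group. The summed level of the 36 complex I subunits, the NADH dehydrogenase, was 6148, 4128 and 4199 CPM in CD4+CD8+, 5177, 4871, 6552, 3527 and 4654 in iRTE, 4229, 4147, 3896, 4236 and 4602 in Artificial CD8 and 2529, 2320.1, 2361, 2635 and 2668 in splenic CD8. For the 15 subunits of complex V the sums were 7878, 6372 and 6673 in CD4+CD8+, 7846, 7548, 8277, 5412 and 6341 in iRTE, 7207, 7132, 6729, 7121 and 7679 in Artificial CD8 and 3575, 3288, 3361, 3624 and 3692 in splenic CD8. The 5 splenic values lay close together in both, while the first CD4+CD8+ library and the third iRTE library were high and the fourth iRTE library low. Complex IV, the cytochrome c oxidase, summed to 3477, 2130.1 and 2239.8 CPM in CD4+CD8+, 2859, 2619, 3788, 1764 and 2565 in iRTE, 2349, 2322, 2203, 2361 and 2621 in Artificial CD8 and 1252, 1064, 1110.3, 1289 and 1212 in splenic CD8. The 8 genes of complex III gave 1847 ± 409 CPM (SD, n = 3) in CD4+CD8+, 1911 ± 332 (SD, n = 5) in iRTE, 1743 ± 90.2 (SD, n = 5) in Artificial CD8 and 970.2 ± 66.3 (SD, n = 5) in splenic CD8. Complex II, the succinate dehydrogenase, had the smallest gap, with 1372, 1149 and 1214 in CD4+CD8+, 1416, 1463, 1424, 1242 and 1302 in iRTE, 1292, 1267, 1200.1, 1268 and 1318 in Artificial CD8 and 889, 885, 868, 847 and 993 in splenic CD8. The 3 groups derived from iPSC overlapped one another in every complex. In bulk samples, fewer cells of a type and less RNA per cell cannot be told apart.

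**Figure D2:**
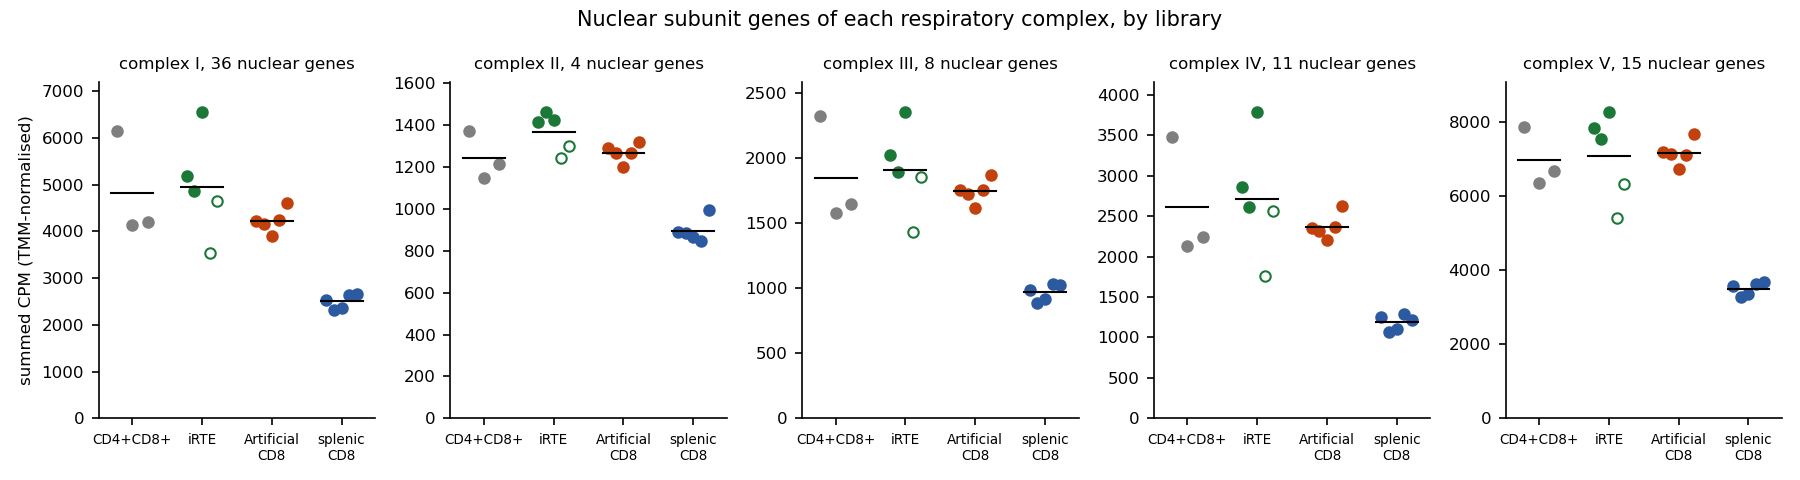
Summed TMM-normalised CPM of the nuclear subunits of each complex (y axis), 1 point per library in each of the 4 groups, with bars at group means. Open circles mark iRTE 4 and 5, whose descriptions follow another naming style. In each panel the 5 splenic CD8 libraries lie below all others, from 2320 to 2668 for complex I and from 3288 to 3692 for complex V.

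Against splenic CD8, the iRTE group asks how cells matured in culture compare with naive cells from the animal. Of 86 nuclear members tested, 77 were higher in iRTE, beside 29.2% of all 13922 genes in the fit, and 2 were lower, beside 29%. The median log2 fold change was 0.99 over the nuclear members and -0.05 over all genes. By complex, 34 of 36 complex I subunits rose (median 0.99), as did 4 of 4 in complex II (0.88), 8 of 8 in complex III (0.95), 10 of 11 in complex IV (1.19) and 15 of 15 in complex V (1.15). Among the assembly factors 4 of 7 rose, with a median of 0.63. Mitochondrial members moved the same way: 19 of 20 tested were higher, and mt-Tm did not pass. The medians were 1.36 for the 12 protein-coding genes, 1.35 for the 2 ribosomal RNAs and 1.85 for the 6 tRNAs. By complex, the protein-coding medians were 1.09 in I, 0.96 in III (mt-Cytb alone), 1.63 in IV and 1.56 in V (mt-Atp6 alone). Those of IV and V include mt-Co2, mt-Co3 and mt-Atp6, which share nearly all their words with copies. Complex I also holds mt-Nd3, mt-Nd4l and mt-Nd4, which share most of theirs.

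The comparison of Artificial CD8 with splenic CD8 gave 73 nuclear members higher and 3 lower, beside 30.3% and 30.2% of all genes tested. The median was 0.85 over the nuclear members and -0.03 over all genes. In complex I, 31 of 36 rose (median 0.75), in complex II 3 of 4 (0.91), in complex III 8 of 8 (0.85), in complex IV 11 of 11 (0.93) and in complex V 15 of 15 (1.03). All 20 mitochondrial members tested were higher, with medians of 1.22 for protein-coding genes, 1.52 for ribosomal RNAs and 2.47 for tRNAs. By complex, the protein-coding medians were 1.11 in I, 1.27 in III, 1.56 in IV and 1.40 in V, with the same shared rows. This comparison and that of iRTE share the 5 splenic libraries, so they are not independent. Scaling to total counts without TMM moved the median of all genes by more than 0.1 only for iRTE, to -0.23, and left the nuclear median at 0.80 and the mitochondrial one at 1.26.

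**Figure D3:**
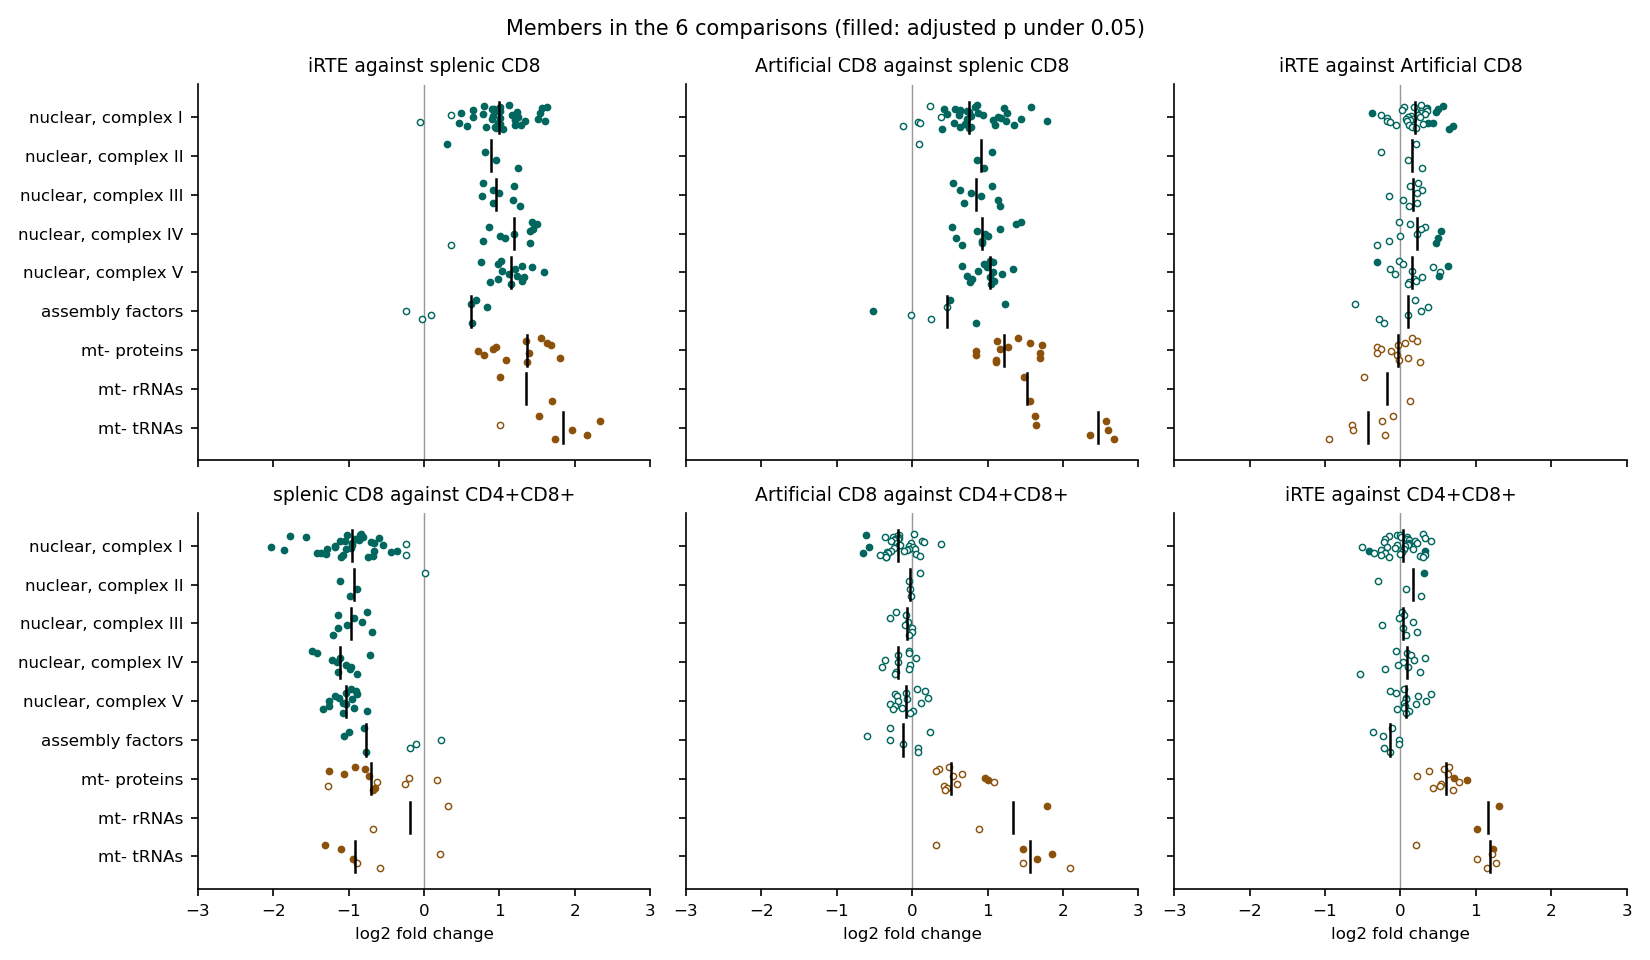
Log2 fold changes of the members (x axis) by complex or RNA class (rows), in 6 panels, 1 per comparison. Filled points passed an adjusted p under 0.05, open points did not, black lines are medians, and green marks nuclear and brown mitochondrial genes. The isoforms known from few tissues and Cox7a2l, Atp5s and Atp5sl are not drawn, and the x axis ends at -3 and 3. Nearly all points lie to the right of 0 in both comparisons against splenic CD8 and to the left for nuclear genes of splenic CD8 against CD4+CD8+.

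A subunit of each complex, chosen by name, shows the range. Cox4i1, a core regulatory subunit of complex IV, measured 656, 427 and 471 in CD4+CD8+, 535, 452, 683, 430.1 and 396 in iRTE, 485, 472, 489, 521 and 551 in Artificial CD8, and 189, 165, 177, 206 and 191 in splenic CD8 CPM. No splenic library came near those of the other groups, with a log2 fold change over splenic CD8 of 1.43 (SE 0.15, adjusted p = 1.2e-07) in iRTE and 1.44 (SE 0.068, adjusted p = 5.84e-08) in Artificial CD8. Atp5a1, the alpha subunit of the catalytic head of complex V, was at 601, 587, 606, 616 and 638 CPM in splenic CD8 and at 1136 to 1270.3 in CD4+CD8+, 1028 to 1428 in iRTE and 1238 to 1269.8 in Artificial CD8. No splenic library exceeded 638 CPM and no cultured one fell below 1028, a log2 difference of 1.02 (SE 0.097, adjusted p = 3.47e-08) for iRTE and 1.04 (SE 0.021, adjusted p = 1.47e-08) for Artificial CD8. Uqcrc1, a core protein of complex III, was at 311, 306, 324, 351 and 373 CPM in splenic CD8 and 686, 649, 812, 529 and 628 in iRTE, and rose by 0.99 (SE 0.11, adjusted p = 7.9e-07) in iRTE and 0.77 (SE 0.061, adjusted p = 9.59e-06) in Artificial CD8.

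The core subunits Ndufs1 and Sdha did not follow, or followed weakly. Ndufs1, the largest iron-sulfur subunit of complex I, measured 162, 235 and 221 in CD4+CD8+, 190.0, 152, 126, 151 and 156 in iRTE, 176, 187, 150.1, 169 and 168 in Artificial CD8, and 167, 166, 153, 145 and 173 in splenic CD8 CPM. The iRTE, Artificial CD8 and splenic ranges overlapped, and the log2 difference from splenic CD8 was -0.053 (SE 0.11, adjusted p = 0.712) for iRTE and 0.082 (SE 0.07, adjusted p = 0.55) for Artificial CD8. Sdha, the flavoprotein of complex II that also serves the citric acid cycle, was at 724, 776, 603, 747 and 592 CPM in iRTE, 586, 588, 594, 609 and 608 in Artificial CD8 and 551, 575, 555, 502 and 612 in splenic CD8. The splenic libraries overlapped the Artificial CD8 ones at 0.094 (SE 0.048, adjusted p = 0.373), and iRTE was higher by 0.30 (SE 0.094, adjusted p = 0.00758), a call lost with total-count scaling at 0.12 (adjusted p = 0.265). Its partner Sdhb, the iron-sulfur subunit, had no such overlap, with 359, 327, 292, 339 and 363 CPM in Artificial CD8 and 162, 146, 149.8, 168 and 179 in splenic CD8 (log2 fold change 1.06, adjusted p = 2.44e-06). In Artificial CD8 the other complex I subunits that did not pass were Ndufa10, Ndufs3, Ndufs7 and Ndufb4, and in iRTE it was Ndufb2.

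Apart from the isoform Cox6a2, the largest nuclear rises over splenic CD8 were those of Ndufa12, Ndufc2 and, in iRTE, the c-ring gene Atp5g2. Ndufa12, an accessory subunit, was at 115, 75.3 and 65.9 CPM in CD4+CD8+, 81.9, 76.7, 99.999, 48.5 and 77.4 in iRTE, 78.7, 75.7, 62, 69.6 and 85.2 in Artificial CD8 and 27.7, 23.2, 21.3, 25.5 and 26.8 in splenic CD8. Ndufc2, a membrane-arm subunit, measured 167, 98.7 and 115 in CD4+CD8+, 101, 108, 166, 65.5 and 92.9 in iRTE, 125, 118, 113, 124 and 123 in Artificial CD8 and 34.7, 32.1, 31.6, 41.4 and 35.2 in splenic CD8. In both genes every splenic library was below every other library, and the fitted changes over splenic CD8 were 1.63 (SE 0.18, adjusted p = 3.81e-07) and 1.6 (SE 0.23, adjusted p = 1.07e-06) in iRTE, and 1.58 (SE 0.10, adjusted p = 3.27e-07) and 1.78 (SE 0.075, adjusted p = 1.82e-07) in Artificial CD8. Ndufb7, another accessory subunit, had the largest difference, again apart from Cox6a2, between CD4+CD8+ (210.4, 118 and 121 CPM) and splenic CD8 (34.9, 33.3, 34, 43.4 and 38.3 CPM), at -2.02 (SE 0.28, adjusted p = 7.49e-08).

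Atp5sl was the clearest member to run against the rest. Despite its symbol, its product (also named DMAC2) is known as an assembly factor of complex I. It measured 29.9, 21.6 and 19.8 in CD4+CD8+, 22.6, 34, 32.7, 22.7 and 49.1 in iRTE, 19.7, 19.8, 22.7, 26.4 and 20.3 in Artificial CD8, and 55.4, 45.6, 47.5, 54.5 and 49.2 in splenic CD8 CPM. Splenic CD8 was above every CD4+CD8+ and Artificial CD8 library, while iRTE 5 at 49.1 CPM reached the splenic range. The log2 fold change against splenic CD8 was -1.21 (SE 0.097, adjusted p = 1.89e-05) in Artificial CD8 and -0.65 (SE 0.22, adjusted p = 0.00611) in iRTE, and splenic CD8 stood 1.09 (SE 0.19, adjusted p = 0.000457) above CD4+CD8+. With iRTE restricted to libraries 4 and 5 the value was -0.49 (adjusted p = 0.108). Ndufaf4, an early assembly factor of complex I, was likewise lower in Artificial CD8 (26.8, 28.9, 30.3, 23.3 and 27.7 CPM) than in splenic CD8 (42.4, 37, 32.7, 43.7 and 40.2 CPM), at -0.52 (SE 0.099, adjusted p = 0.0118). Atp5s was the third such gene in Artificial CD8, at -1.03 (adjusted p = 0.0105), from low and overlapping levels of 2.16 to 6.81 and 6.61 to 11.6 CPM.

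Isoforms known from few tissues were nearly silent, except Cox6a2. Cox4i2, Cox7a1, Cox7b2, Cox8b, Cox8c and Ndufa4l2 never exceeded 1.13 CPM (Cox7a1) in any library and did not enter the test. Cox6a2, the heart and muscle form of a complex IV subunit, was at 15.9, 11.2, 12.7, 10.5 and 12.2 CPM in Artificial CD8, 1.82, 1.34 and 1.62 in CD4+CD8+, 0.287, 0.178, 0.0885, 0 and 2.69 in iRTE and 0.054, 0.0708, 0, 0 and 0 in splenic CD8. Every Artificial CD8 library was above every library of the other groups (adjusted p = 9.42e-07 against splenic CD8, 0.000174 against iRTE and 0.0232 against CD4+CD8+). The last call was lost without CD4+CD8+ 1 (0.0729), 2 (0.0882) or 3 (0.079), each given as an adjusted p. No fold is given against groups at or under the 3-count floor. The iRTE call over splenic CD8 (adjusted p = 0.0028) rested on iRTE 5, and its adjusted p was 0.0643 without that library. The general form Cox6a1 was far above it per library, from 235 to 502 CPM in iRTE and 277 to 341 CPM in Artificial CD8, and its level did not pass between those groups (0.28 (SE 0.18, adjusted p = 0.17)). Cox6b2, a testis form, was at 0 in 4 of 5 iRTE libraries and at most 1.01 CPM elsewhere, and with Atp5sl it made up the 2 nuclear members lower in iRTE than in splenic CD8 (adjusted p = 0.000747).

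Genes with close relatives in the chain differed in how they moved. Atp5g1, Atp5g2 and Atp5g3 encode the same c-ring protein of complex V. Atp5g2 measured 78.9, 48.5 and 54.6 in CD4+CD8+, 78.6, 85.1, 141, 40.9 and 37.2 in iRTE, 53.4, 56.2, 51.3, 55.4 and 50.1 in Artificial CD8, and 28.2, 22.4, 23.5, 26.4 and 26.3 in splenic CD8 CPM, while Atp5g3 had 277 to 542 in iRTE and 185 to 214 in splenic CD8, and Atp5g1 had 119.6 to 258 and 86.6 to 103. Over splenic CD8 the iRTE changes were 1.59 (SE 0.36, adjusted p = 5.45e-05) for Atp5g2, 1.12 (SE 0.17, adjusted p = 3.48e-06) for Atp5g3 and 1.03 (SE 0.19, adjusted p = 3.28e-05) for Atp5g1, with the widest spread in Atp5g2. Its 3 iRTE libraries of the first naming style, at 78.6, 85.1 and 141 CPM, lay above the other 2 at 40.9 and 37.2 CPM. Ndufa4, now counted with complex IV, was at 115, 128, 265, 95 and 192 CPM in iRTE and 132, 115, 116, 135 and 127 in splenic CD8, overlapping, at 0.35 (SE 0.27, adjusted p = 0.164), which passed without iRTE 4 at 0.49 (adjusted p = 0.0342). In Artificial CD8 it rose by 0.66 (SE 0.068, adjusted p = 0.0121). Ndufab1, the acyl carrier protein of complex I and of mitochondrial fatty acid synthesis, rose by 0.49 (SE 0.15, adjusted p = 0.00667) in iRTE and 0.87 (SE 0.067, adjusted p = 3.77e-05) in Artificial CD8. The iRTE value was 0.30 (adjusted p = 0.0617) with total-count scaling.

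Mitochondrial transcripts were high in Artificial CD8, spread widely in iRTE and were low in splenic CD8. The complex I gene mt-Nd1 measured 1207, 913 and 751 in CD4+CD8+, 2172, 1631, 2090.5, 1007 and 914 in iRTE, 2039.8, 2060.2, 1739, 1876 and 1596 in Artificial CD8, and 967, 991, 782, 634 and 778 in splenic CD8 CPM. The Artificial CD8 libraries lay above every splenic and CD4+CD8+ library, whereas iRTE 4 and 5 fell among them. For mt-Cytb the levels were 2725, 2308 and 1961 in CD4+CD8+, 3887, 3239, 3409, 1685 and 1401 in iRTE, 3751, 3603, 3179, 3487 and 2915 in Artificial CD8, and 1649.6, 1556, 1343, 1198 and 1266 in splenic CD8 CPM. Here too iRTE 5 lay within the splenic range, and the fitted changes over splenic CD8 were 0.96 (SE 0.31, adjusted p = 0.000984) in iRTE and 1.27 (SE 0.11, adjusted p = 5.94e-05) in Artificial CD8. For mt-Co1 the levels were 3816, 3041 and 2816 in CD4+CD8+, 7216, 6082, 6181, 2424 and 2093 in iRTE, 4616, 4523, 4016, 4164 and 3264 in Artificial CD8, and 2128, 2245, 1804, 1432 and 1797 in splenic CD8 CPM, and the changes 1.35 (SE 0.39, adjusted p = 0.000296) in iRTE and 1.13 (SE 0.14, adjusted p = 0.00126) in Artificial CD8. The splenic libraries were below every CD4+CD8+ library in mt-Co1 and mt-Cytb but not in mt-Nd1.

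The 2 ribosomal RNAs of the mitochondrial ribosome were higher in both in vitro CD8 groups than in splenic CD8. The large one, mt-Rnr2, was at 2852, 2143 and 2230.2 in CD4+CD8+, 5846, 5322, 8619, 2359.9 and 2281 in iRTE, 4926, 4947, 4846, 4367 and 3189 in Artificial CD8, and 1755, 1817, 1416, 1172 and 1364 in splenic CD8 CPM. It rose over splenic CD8 by 1.7 (SE 0.40, adjusted p = 5.23e-05) in iRTE and 1.57 (SE 0.17, adjusted p = 9.84e-05) in Artificial CD8, with no overlap in either. The small one, mt-Rnr1, was at 324, 212 and 212 in CD4+CD8+, 708, 542, 939.7, 345 and 561 in iRTE, 939.6, 926, 934, 854 and 661 in Artificial CD8, and 343, 412, 316, 206 and 268 in splenic CD8 CPM. Its Artificial CD8 libraries were all above the highest splenic one, a gap fitted at 1.48 (SE 0.19, adjusted p = 1.47e-05), and iRTE differed by 1.0 (SE 0.29, adjusted p = 0.000809) with overlap at iRTE 4. Of the tRNAs, 6 of 22 had enough counts to test. The clearest, mt-Tc, was at 4.41, 5.43, 4.03, 3.3 and 3.76 CPM in Artificial CD8, 3.93, 3.37, 3.72, 3.55 and 3.13 in iRTE, 1.73, 1.26 and 1.54 in CD4+CD8+ and 0.81, 0.566, 1.05, 0.603 and 0.425 in splenic CD8. None of the 4 ranges overlapped except those of iRTE and Artificial CD8.

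**Figure D4:**
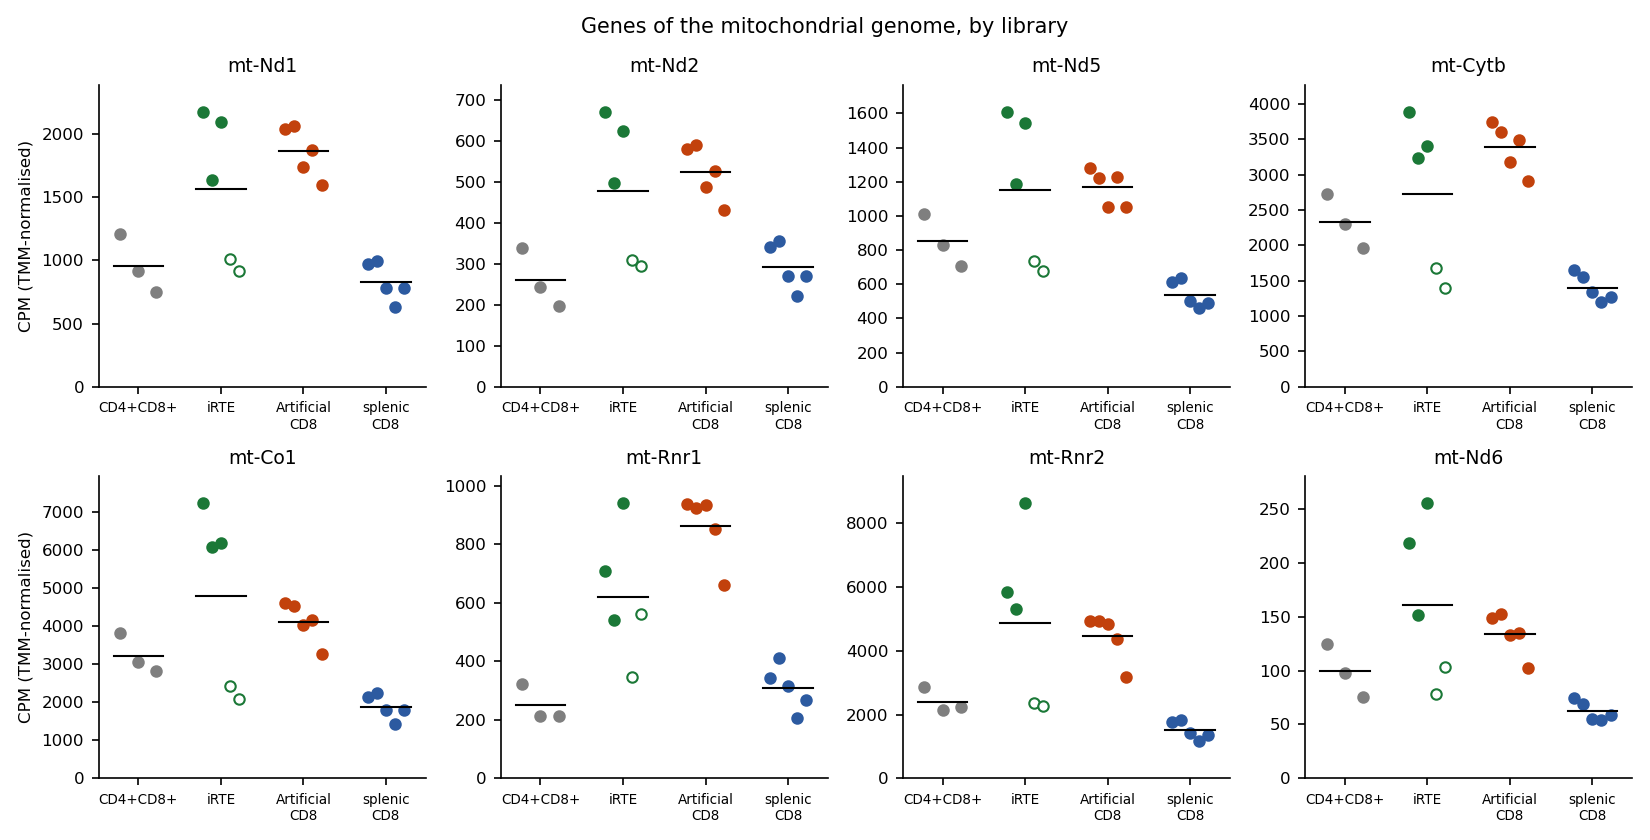
TMM-normalised CPM (y axis) of 8 mitochondrial genes, 1 panel per gene and 1 point per library, with bars at group means. Open circles mark iRTE 4 and 5, which lie below iRTE 1 to 3 in mt-Nd1, mt-Cytb, mt-Co1 and mt-Rnr2.

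In mt-Nd1, mt-Cytb, mt-Co1 and mt-Rnr2, iRTE 4 and 5 lay below iRTE 1 to 3, whereas in mt-Rnr1 iRTE 5 lay above iRTE 2. Descriptions of iRTE 1 to 3 follow one form and those of iRTE 4 and 5 another, and the labels do not call this a batch. When only iRTE 1 to 3 stood for the group, the medians over splenic CD8 were 1.16 for nuclear and 1.84 for mitochondrial members. With iRTE 4 and 5 they were 0.68 and 0.62, and 9 in place of 19 mitochondrial members passed. The calls of mt-Nd1 (0.22 (adjusted p = 0.326)), mt-Cytb (0.15 (adjusted p = 0.433)) and mt-Co1 (0.27 (adjusted p = 0.187)) over splenic CD8 were among those lost. Both medians were above 0 in both subsets, and both were smaller in iRTE 4 and 5. Those 2 libraries were not alike: iRTE 4 was the lowest of its group in 65 of 74 nuclear subunits and iRTE 5 in 8.

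Between iRTE and Artificial CD8 most members did not pass the test. Of 86 nuclear members, 15 were higher in iRTE and 4 lower, against 20% and 18.7% of all genes tested, with a median of 0.18 over the members and 0.01 over all genes. With total counts and no TMM factor the split was 7 higher and 7 lower, and the median of all genes was -0.11. Among those higher were Ndufa3, Ndufa8, Ndufa10, Ndufa13, Ndufs3, Ndufs7 and Ndufv3 of complex I, Cox6b1, Cox7b and Cox8a of complex IV, Atp5d and Atp5h of complex V, Cox7a2l and Atp5sl. Leaving out iRTE 4 raised the number higher to 29, and leaving out Artificial CD8 1, 2 or 3 lowered it to 9. The 4 lower were Cox6a2, Cox6b2, Atp5b and Ndufab1, and their number was 7 without iRTE 3. Of the 20 mitochondrial members 0 passed by edgeR in either direction. At an unadjusted p under 0.05, 1 was lower and 0 higher, and DESeq2 called 1 lower. The lowest p in the edgeR fit was that of mt-Rnr1, at -0.48 (SE 0.26, adjusted p = 0.0935), and at -0.68 (adjusted p = 0.0159) without iRTE 3.

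Ndufs7 and Cox7a2l were higher in iRTE than in Artificial CD8 without overlap. Ndufs7, an iron-sulfur subunit next to the quinone site of complex I, was at 152, 169, 217, 128 and 152 CPM in iRTE and 106, 101, 88.8, 105 and 105 in Artificial CD8. All 5 iRTE libraries were higher, by 0.69 (SE 0.13, adjusted p = 0.000884), and Artificial CD8 did not differ detectably from splenic CD8 (109.7, 103, 98.8, 121 and 117 CPM, adjusted p = 0.493). Cox7a2l, a factor that joins complex III to IV in supercomplexes, was at 222, 215, 181, 196 and 167 CPM in iRTE and 129, 129.6, 138, 131 and 126 in Artificial CD8. Its iRTE excess was 0.58 (SE 0.079, adjusted p = 9.46e-05), and the CD4+CD8+ libraries at 219, 166 and 186 CPM were also above every Artificial CD8 library. Lower in iRTE was Atp5b, the catalytic beta subunit of complex V, at 2349, 2182, 1962, 1807 and 1859.5 CPM against 2550.5, 2496, 2384, 2516 and 2693, with -0.32 (SE 0.077, adjusted p = 0.00551). The Ndufab1 difference, -0.38 (SE 0.15, adjusted p = 0.0418), was lost without iRTE 1, 2 or 4 or without Artificial CD8 1, 2, 4 or 5, with adjusted p from 0.0586 to 0.0905.

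The 2 subsets of iRTE gave medians of opposite sign in this comparison, although iRTE 2 and iRTE 5 each lay within the Artificial CD8 range in the nuclear sum of complex IV. Against Artificial CD8, the median of iRTE 1 to 3 was 0.35 for nuclear and 0.20 for mitochondrial members, with 41 nuclear members higher. For iRTE 4 and 5 the medians were -0.15 and -0.80, with 13 nuclear and 13 mitochondrial members lower. In iRTE 4 and 5 alone, mt-Co1 was -0.87 (adjusted p = 0.000999) against Artificial CD8, and in iRTE 1 to 3 alone 0.66 (adjusted p = 0.000562). The pooled value of 0.22 (SE 0.39, adjusted p = 0.54) averages iRTE 1 to 3, above every Artificial CD8 library in this gene, and iRTE 4 and 5, below every one.

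The step from CD4+CD8+ to the in vitro CD8 groups left most nuclear members without a call. For iRTE, 2 nuclear members were higher and 2 lower, beside 11.8% and 12.3% of all genes, with medians of 0.05 and 0.02. With total counts and no TMM factor the split was 0 higher and 5 lower. Sdha was among the higher, at 0.31 (SE 0.099, adjusted p = 0.0378), and the 2 lower were Ndufs1 at -0.41 (SE 0.19, adjusted p = 0.0268) and Cox6b2. Sdha was lost without CD4+CD8+ 1, 2 or 3 or iRTE 1 or 2 (adjusted p 0.0696 to 0.136), and Ndufs1 without CD4+CD8+ 2 or 3 or iRTE 3 (adjusted p 0.054 to 0.172). The number higher ran from 0 (without CD4+CD8+ 2 or 3 or iRTE 1 or 2) and 1 (without iRTE 3) to 7 (without CD4+CD8+ 1) and 8 (without iRTE 4), and the number lower was 4 without iRTE 3. For Artificial CD8, 1 nuclear member was higher and 4 lower, beside 6.54% and 8.12% of all genes, with medians of -0.13 and 0.00. The higher gene was Cox6a2, described above, whose call no fit without a CD4+CD8+ library kept. The lower genes were Ndufa10 at -0.61 (SE 0.18, adjusted p = 0.00823), Ndufs4 at -0.66 (SE 0.27, adjusted p = 0.0287), Ndufb7 at -0.58 (SE 0.28, adjusted p = 0.05) and Cox7a2l at -0.54 (SE 0.12, adjusted p = 0.0029). Without CD4+CD8+ 1, which had the highest level in 71 of 74 nuclear subunits within its group, Ndufa10, Ndufs4 and Ndufb7 did not pass (adjusted p 0.0794, 0.287 and 0.434). Ndufs4 and Ndufb7 were also lost without Artificial CD8 1, 2, 3 or 4, which each left 2 genes lower.

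Among mitochondrial members, the ribosomal RNAs and mt-Nd2 led the same step. In iRTE, 5 of 20 were higher than in CD4+CD8+, beside 11.8% of all genes tested, with medians of 0.70 and 0.02. They were mt-Rnr1 at 1.31 (SE 0.31, adjusted p = 0.00143), mt-Rnr2 at 1.02 (SE 0.40, adjusted p = 0.0301), mt-Nd2 at 0.88 (SE 0.34, adjusted p = 0.0157), mt-Nd1 at 0.71 (SE 0.33, adjusted p = 0.0458) and mt-Tc. The mitochondrial median was 1.06 with iRTE 1 to 3 and -0.06 with iRTE 4 and 5, and that of the nuclear members 0.22 and -0.26. The calls of mt-Nd1 and mt-Rnr2 were lost without CD4+CD8+ 2 or 3 or any of iRTE 1 to 3, and that of mt-Nd2 without CD4+CD8+ 2 or 3. The number higher was 1 without CD4+CD8+ 2, 2 without CD4+CD8+ 3, 3 without iRTE 1 or 3, 8 without iRTE 4 and 11 without iRTE 5. The highest adjusted p on leaving out a library was 0.202 for mt-Nd1 and 0.0972 for mt-Nd2 (both without CD4+CD8+ 3) and 0.111 for mt-Rnr2 (without CD4+CD8+ 2). In Artificial CD8, 6 of 20 were higher, beside 6.54% of all genes, with medians of 0.77 and 0.00. They were mt-Rnr1 at 1.79 (SE 0.23, adjusted p = 0.00031), mt-Nd2 at 1.01 (SE 0.24, adjusted p = 0.0121), mt-Nd1 at 0.96 (SE 0.21, adjusted p = 0.0152) and the tRNAs mt-Tm, mt-Tn and mt-Tc. The number was 3 without CD4+CD8+ 2 or 3, when mt-Nd1 (adjusted p 0.0587 and 0.0841) and mt-Nd2 (0.0519 and 0.0721) did not pass. Although mt-Rnr2 did not pass (0.89 (SE 0.18, adjusted p = 0.0773)), its 5 Artificial CD8 libraries were all above the 3 CD4+CD8+ ones.

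Nearly all nuclear and part of the mitochondrial members were lower in splenic CD8 than in CD4+CD8+. Of 86 nuclear members 77 were lower and 1 higher, beside 28.9% and 27.4% of all genes, with a median of -0.97 against 0.03 over all genes. The medians were -0.95 in complex I (34 of 36 lower), -0.93 in complex II (3 of 4), -0.97 in complex III (8 of 8), -1.12 in complex IV (11 of 11) and -1.03 in complex V (15 of 15). Of the mitochondrial members 10 of 20 were lower (median -0.71), 7 of them protein-coding. The complex III gene mt-Cytb was lower, at -0.73 (SE 0.16, adjusted p = 0.0162), as was mt-Co1, at -0.78 (SE 0.17, adjusted p = 0.0339), whereas mt-Nd1 was at -0.20 (SE 0.23, adjusted p = 0.482), mt-Nd2 at 0.17 (SE 0.26, adjusted p = 0.572) and mt-Rnr1 at 0.31 (SE 0.26, adjusted p = 0.311). The mitochondrial number was 2 without CD4+CD8+ 1 and 6 without CD4+CD8+ 2 or any of splenic CD8 2 to 5. Without CD4+CD8+ 1, mt-Cytb was at -0.61 (adjusted p = 0.0815) and mt-Co1 at -0.64 (adjusted p = 0.133). The mt-Co1 call was also lost without CD4+CD8+ 2 (adjusted p 0.0557) and without splenic CD8 3, 4 or 5 (adjusted p 0.0514 to 0.066). All 3 comparisons against CD4+CD8+ share its 3 libraries.

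The balance of the 2 genomes within a complex was described by the log2 ratio of summed mitochondrial to summed nuclear CPM in each library. In complex I it was -0.95, -0.76 and -1.05 in CD4+CD8+, 0.073, -0.26, -0.31, -0.52 and -1.0 in iRTE, 0.14, 0.16, 0.022, 0.044 and -0.31 in Artificial CD8 and -0.11, 0.074, -0.32, -0.72 and -0.47 in splenic CD8. Each CD4+CD8+ library lay below each Artificial CD8 and each splenic library, and the mean was 0.93 higher in Artificial CD8 (pooled SD 0.17) and 0.61 higher in splenic CD8 (pooled SD 0.24). In complex III the ratio was 0.23, 0.55 and 0.26 in CD4+CD8+, 0.94, 0.77, 0.54, 0.24 and -0.40 in iRTE, 1.1, 1.07, 0.98, 0.99 and 0.64 in Artificial CD8 and 0.74, 0.81, 0.55, 0.21 and 0.30 in splenic CD8. The Artificial CD8 libraries were all above the CD4+CD8+ ones, by 0.61 on average (pooled SD 0.18), and splenic CD8 overlapped both. In complex IV, where mt-Co1 supplies nearly all mitochondrial counts, it was 0.14, 0.52 and 0.34 in CD4+CD8+, 1.34, 1.22, 0.71, 0.47 and -0.29 in iRTE, 0.98, 0.97, 0.88, 0.83 and 0.33 in Artificial CD8 and 0.77, 1.08, 0.71, 0.16 and 0.57 in splenic CD8, and all groups overlapped. For complex V the ratio rests on mt-Atp6, which shares nearly all its words with a copy, and is not read.

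Between iRTE and splenic CD8 the ratio over complexes I, III, IV and V differed by -0.02 (pooled SD 0.41), less than the spread between libraries. This ratio still includes complex V, with mean nuclear sums of 7085 CPM in iRTE and 3508 in splenic CD8. The mitochondrial sums of complex V were only 7.36 and 2.45 CPM. The iRTE values ranged over more than a log2 unit, from -0.11 in iRTE 1 to -1.40 in iRTE 5. With the mitochondrial genes that share under 20% of their words in place of all, an alternative chosen after seeing the data, the complex I order was kept: the CD4+CD8+ libraries were at -1.20, -0.99 and -1.28, and the highest and lowest Artificial CD8 libraries at -0.04 and -0.53. The splenic libraries then lay between -0.18 and -0.94. The ratio is a score over the members and carries no test.

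**Figure D5:**
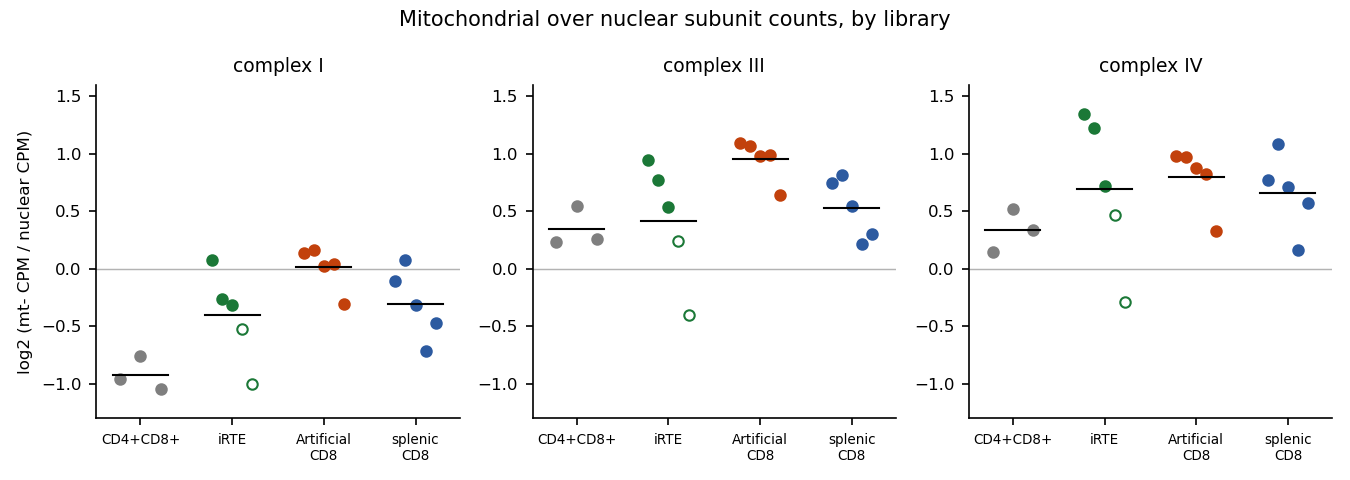
Log2 ratio of summed mitochondrial to summed nuclear CPM (y axis) for complexes with a panel each, 1 point per library in each group, with bars at group means and open circles for iRTE 4 and 5. In complex I the 3 CD4+CD8+ libraries, from -1.05 to -0.76, lie below the 5 Artificial CD8 libraries, from -0.31 to 0.16.

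Transcript length moved with these results. Most nuclear respiratory transcripts are short: of 85 members with a length, 45 were under 1000 bases. Over splenic CD8, the median in iRTE was 1.12 for short and 0.95 for long members, beside 0.78 for 545 other short genes and -0.03 for 10574 other long genes. In Artificial CD8 the 4 medians were 0.93, 0.76, 0.49 and -0.02, and for splenic CD8 against CD4+CD8+ they were -1.03, -0.92, -0.68 and 0.00. In these 3 comparisons the medians of the members lay farther from 0 than those of other genes in the same class. The classes rest only on the cut at 1000 bases and do not match lengths within a class. Single libraries showed the same pattern within groups: CD4+CD8+ 1 was the highest of its group in 71 of 74 subunits and iRTE 3 in 65, while iRTE 4 was the lowest in 65. Over the other short genes, the median deviation of log2 CPM from the group mean was 0.41, 0.43 and -0.48 in those libraries. It was 0.44, 0.53 and -0.60 over the short members and 0.34, 0.37 and -0.47 over the long members. Over the other long genes it was -0.03, -0.002 and 0.01, so the long members deviated with the short genes and not with other long genes. The part of transcript length or RNA quality in the differences was not tested.

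Genes that assemble and serve the chain had calls in both directions. Among 39 assembly and carrier genes in the fit, iRTE had 18 above and 5 below splenic CD8, and Artificial CD8 had 12 and 7, with medians of 0.24 and 0.20. Over all genes 29.2% were higher and 29% lower in iRTE, and 30.3% and 30.2% in Artificial CD8, so that the share of this list higher in Artificial CD8 was near the background. Atpif1, the inhibitor of ATP synthase hydrolysis, rose by 1.75 (SE 0.31, adjusted p = 3.79e-06) and 2.0 (SE 0.095, adjusted p = 5.23e-07). Uqcc2, an assembly factor of complex III, rose by 1.13 (SE 0.17, adjusted p = 7.87e-06) in iRTE, and Cycs, cytochrome c, by 1.06 (SE 0.088, adjusted p = 1.09e-05) in Artificial CD8. Lyrm7, an assembly factor of complex III, was called lower in iRTE, at -1.49 (SE 0.25, adjusted p = 5.81e-05). Ttc19, another complex III factor, was lower in both, at -0.90 (SE 0.22, adjusted p = 0.00119) and -0.89 (SE 0.13, adjusted p = 0.00113). In Artificial CD8, Tmem126b, an assembly factor of complex I, was lower, at -0.75 (SE 0.13, adjusted p = 0.00181).

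In the machinery that copies and reads mitochondrial DNA, more genes were called lower than higher. Of 21 such genes, 2 were higher and 9 lower in iRTE than in splenic CD8, beside 29.2% and 29% of all genes, and 3 and 8 in Artificial CD8, beside 30.3% and 30.2%, with medians of -0.24 and -0.28. Tefm, the elongation factor of mitochondrial transcription, was at 43.4, 45, 34.7, 55 and 29 CPM in iRTE, 57.6, 49.7, 51, 46.9 and 54.6 in Artificial CD8 and 14.9, 10.8, 10.5, 16.1 and 12.8 in splenic CD8. All in vitro libraries were above the splenic ones, by 1.67 (SE 0.20, adjusted p = 1.19e-07) and 1.99 (SE 0.13, adjusted p = 6.54e-09). Dna2, a helicase and nuclease that also works on nuclear DNA, was higher by 2.0 (SE 0.57, adjusted p = 0.000495) and 4.15 (SE 0.57, adjusted p = 1.58e-07). Called lower were Mterf3, a transcription terminator family member, at -0.87 (SE 0.087, adjusted p = 2.66e-06) and -0.88 (SE 0.067, adjusted p = 1.49e-06), Mterf2 at -1.24 (SE 0.17, adjusted p = 1.72e-05) in iRTE, and Polg2, the accessory subunit of the mitochondrial DNA polymerase, at -1.78 (SE 0.20, adjusted p = 2.02e-05) in Artificial CD8. Of 21 RNA processing genes, 7 were higher and 6 lower in iRTE, and 7 and 5 in Artificial CD8, shares near or below those of all genes and no result about this list. Grsf1, an RNA granule protein, rose by 0.56 (SE 0.15, adjusted p = 0.00185) and 0.71 (SE 0.083, adjusted p = 0.000204), and Fastk was lower, at -1.36 (SE 0.26, adjusted p = 1.24e-05) and -1.8 (SE 0.10, adjusted p = 3.39e-07).

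Citric acid cycle and import genes had more calls higher than lower. Of 17 cycle genes, 13 were higher in each in vitro CD8 group than in splenic CD8, beside 29.2% (iRTE) and 30.3% (Artificial CD8) of all genes, with medians of 0.45 in both, below those of the nuclear members (0.99 and 0.85). Fh1, fumarase, rose by 1.25 (SE 0.13, adjusted p = 7.61e-08) in iRTE and 1.5 (SE 0.074, adjusted p = 3.89e-09) in Artificial CD8, and Idh3a, a subunit of isocitrate dehydrogenase, by 1.03 (SE 0.083, adjusted p = 6.91e-08) and 1.0 (SE 0.069, adjusted p = 5.75e-08). Its partner subunit Idh3b was lower in Artificial CD8, at -0.44 (SE 0.053, adjusted p = 0.0018). Of 19 import and membrane genes, 14 rose in iRTE and 17 in Artificial CD8, with medians of 0.71 and 0.83. Vdac3, an outer membrane channel, was at 252, 239.6, 218, 236 and 197 CPM in iRTE, 333, 331, 302, 329.5 and 315 in Artificial CD8 and 87.7, 88, 88, 94.7 and 106 in splenic CD8, with no overlap with spleen and changes of 1.3 (SE 0.082, adjusted p = 1.25e-09) and 1.79 (SE 0.06, adjusted p = 1.39e-11). Phb, prohibitin of the inner membrane, rose by 1.44 (SE 0.12, adjusted p = 4.16e-09) in iRTE, and Slc25a4, an ADP/ATP carrier, by 1.6 (SE 0.051, adjusted p = 5.38e-11) in Artificial CD8. Chchd3, of the complex that shapes cristae, differed between the in vitro groups at 124, 124, 106, 77.6 and 123 CPM in iRTE and 236, 233, 229, 237 and 263 in Artificial CD8 (-1.11 (SE 0.14, adjusted p = 2.6e-07)).

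Regulators of mitochondrial biogenesis split by gene. Myc, a growth regulator, was at 208, 206 and 198 in CD4+CD8+, 296, 339.5, 343, 304 and 825 in iRTE, 235, 229, 222, 231 and 235 in Artificial CD8, and 64.8, 70.8, 72.2, 89.5 and 75.8 in splenic CD8 CPM. All in vitro libraries exceeded the splenic ones, by 2.5 (SE 0.29, adjusted p = 3.76e-08) in iRTE and 1.63 (SE 0.079, adjusted p = 3.35e-06) in Artificial CD8, and iRTE 5 stood far above its group. Ppargc1a, the coactivator PGC-1alpha, was at 3.49, 3.15, 4.14, 2.95 and 3.4 CPM in Artificial CD8, at 0 in every iRTE and CD4+CD8+ library and at 0 in 4 of 5 splenic ones (adjusted p = 2.06e-06 against splenic CD8 and 4.97e-06 against iRTE). Its relative Ppargc1b ran the other way, lower in Artificial CD8 than in splenic CD8, at -1.26 (SE 0.10, adjusted p = 3.66e-05). Gabpa, the DNA-binding subunit of GABP, rose by 0.65 (SE 0.24, adjusted p = 0.00687) in iRTE, while Gabpb2, a partner subunit, was lower, at -1.71 (SE 0.15, adjusted p = 3e-08) and -0.94 (SE 0.14, adjusted p = 2.14e-05). The related coactivator Pprc1 was lower in iRTE, at -0.71 (SE 0.12, adjusted p = 2.29e-05).

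Cell cycle genes were lowest in splenic CD8, as the nuclear respiratory genes were, but also differed between the cultured groups. The summed level of 12 cycle genes was 3614 to 3995 CPM in CD4+CD8+, 677 to 2222 in iRTE, 3774 to 4714 in Artificial CD8 and 481 to 558 in splenic CD8. Of the 12, 11 were higher in iRTE and 12 in Artificial CD8 than in splenic CD8, beside 29.2% and 30.3% of all genes tested. Against CD4+CD8+, 11 of the 12 were lower in iRTE (median -1.18), beside 12.3% of all genes. In that comparison the nuclear members had a median of 0.05 and the mitochondrial ones of 0.70. In iRTE, 10 of 12 were lower than in Artificial CD8, beside 18.7% of all genes. The nuclear respiratory levels of these 2 groups overlapped in each complex. Erythroid genes, from blood cells, summed to 170 to 219 CPM in splenic CD8 and at most 2.55 elsewhere. Stromal genes summed to 1.38 to 41 CPM in CD4+CD8+ and 17.3 to 26.3 in Artificial CD8, with Dcn at 0, against 0.974 to 4.31 in iRTE and 2.29 to 3.62 in splenic CD8. Thymic epithelial genes summed to 30.4 to 40.8 CPM in Artificial CD8, 16 to 19.5 in CD4+CD8+, 1.07 to 8.79 in iRTE and 1.9 to 4.89 in splenic CD8, with Foxn1 at 0 in all 4 groups. Also at 0 were Krt5, Krt8 and Psmb11 in CD4+CD8+, Krt5 in Artificial CD8, Psmb11 in iRTE, and Krt5 and Krt8 in splenic CD8. Only 2 of the 6 genes in this list entered the test. The B-cell list reached 767 to 1646 CPM over all groups, with Ms4a1 and Pax5 at 0 outside splenic CD8, and the myeloid list stayed at or below 14.4 CPM. The part of these markers and of proliferation in the results was not tested.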

How the data were processed

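RNA sequencing counts were used from 18 libraries of sorted mouse T cells: CD4+CD8+ (n = 3), iRTE (n = 5), Artificial CD8 (n = 5) and splenic CD8 (n = 5). The authors deposited whole-number counts per gene symbol. Reads were aligned with STAR 2.4.2 to mm9 and counted with Subread, per the submitters' processing notes. The per-file headers name a sorted, duplicate-marked alignment. Annotation release, strand setting and handling of reads with several matches: not given in the sources used here. Thus a gene and its antisense partner or near-identical copy may share reads. A second deposited table of log2 values was not used here.

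Low rows were removed with filterByExpr at its defaults (edgeR 4.0.16, R 4.3.3), which left 13922 genes, with 86 of 92 nuclear and 20 of 37 mitochondrial members. One TMM-scaled model held all 18 libraries, so that the 4 groups shared an estimate of the spread. Each of the 6 pairs of groups was compared with edgeR's quasi-likelihood test, p-values were Benjamini-Hochberg adjusted across the genes kept, and an adjusted p under 0.05 counted as a call. SE values come from the within-group variance of log2 CPM (prior count 2). The script was checked on simulated counts. Summed CPM and ratios carry no test. Shared 50-base words were counted in GENCODE M21 transcripts (GRCm38), and promoters were read from RefSeq, neither being the build of the counts.

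The members, lists and tests were chosen with earlier results of these data known. Named genes were all mitochondrial protein-coding genes and ribosomal RNAs, a subunit per complex (Ndufs1, Sdha, Uqcrc1, Cox4i1, Atp5a1), the 3 largest called rises and falls without overlap and at 10 CPM or more in the higher group, up to 5 members called against the common direction, isoforms and paralogues, and up to 2 genes per list and direction by adjusted p. Other names, such as Sdhb, Ndufa8, Uqcr11 and members listed within a count, were chosen after their values were seen. Some members are counted but not reported by name here. Alternatives were DESeq2 1.42.0, other scalings and filters, a replicate block, only the groups compared, subsets of iRTE and leaving out each library. Replicate numbers did not pair the libraries.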

Additional observations from a re-analysis of the deposited data

Results flagged for a closer look

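In groups of 5 libraries, 9 of 135 examined values stood apart from the other 4 by more than Dixon's criterion allows, and chance alone gives about 1 in 20. Among nuclear genes, Cox6a2 was 2.69 CPM in iRTE 5 and at most 0.287 CPM in the other iRTE libraries, and Cox6b2 was 0.125 CPM in iRTE 4 and at 0 in the rest, below the 3-count floor. Ndufb7 was 152 CPM in iRTE 3, the highest of its group, and Ndufs7 was 88.8 CPM in Artificial CD8 3, the lowest of its group. Among mitochondrial genes, mt-Atp6 was 7.40 CPM in Artificial CD8 2 and mt-Nd4l 1.29 CPM in Artificial CD8 1, the highest of their group, and both rows share nearly all their words with copies. Artificial CD8 5 had the lowest log2 ratio of mitochondrial to nuclear counts in its group, at -0.76 over all complexes, 0.64 in complex III and 0.33 in complex IV.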

How the results depend on the processing

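Of the counts and ratios that summarise the comparisons, 407 values under alternatives stayed near the reported ones and 73 moved. For single genes and the ratios by complex, 3325 values stayed. In 121 values a gene lost its call, in 69 it gained one, in 9 it reversed, and 4 ratios moved. Each value is a gene or ratio in a given comparison under a given alternative, so the same gene can count more than once. The counts of mt-Atp8, 16 tRNAs and 6 isoforms were too low to test. The cause was not tested.

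Counts of iRTE against Artificial CD8 were as follows. Nuclear members higher (15) were 7 with total counts, 41 with iRTE 1 to 3, 5 with iRTE 4 and 5, and 9 to 29 on leaving out a library. Nuclear members lower (4) were 7 with total counts, 2 with only the 2 groups, 13 with iRTE 4 and 5, and 3 to 7 on leaving out a library. Mitochondrial members higher (0) were 3 with iRTE 1 to 3. Mitochondrial members lower (0) were 1 with total counts, DESeq2, the replicate block or iRTE 1 to 3, 13 with iRTE 4 and 5, and 0 to 1 on leaving out a library.

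For iRTE against splenic CD8, nuclear members lower (2) were 1 with only the 2 groups or with iRTE 4 and 5, and mitochondrial members higher (19) were 9 with iRTE 4 and 5. For iRTE against CD4+CD8+, nuclear members higher (2) were 0 with total counts, no filter, the replicate block, only the 2 groups or iRTE 4 and 5, 15 with iRTE 1 to 3, and 0 to 8 on leaving out a library. Nuclear members lower (2) were 5 with total counts, 1 with the block, 0 with only the 2 groups, 15 with iRTE 4 and 5, and 2 to 4 on leaving out a library. Mitochondrial members higher (5) were 3 with no filter or iRTE 4 and 5, 8 with the block, 1 with only the 2 groups, 15 with iRTE 1 to 3, and 1 to 11 on leaving out a library, and 1 was lower (0) with iRTE 4 and 5.

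For Artificial CD8 against CD4+CD8+, nuclear members higher (1) were 0 to 1 on leaving out a library, nuclear members lower (4) were 2 with the block and 2 to 4 on leaving out a library, and mitochondrial members higher (6) were 10 with the block, 14 with only the 2 groups and 3 to 6 on leaving out a library. For splenic CD8 against CD4+CD8+, nuclear members higher (1) were 2 with only the 2 groups, and mitochondrial members lower (10) were 5 with no filter, 4 with the block and 2 to 8 on leaving out a library. Same-numbered libraries of different groups did not deviate together (r from -0.07 to 0.06 over 24 pairs), so they share only a number.

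The reversals all came from using iRTE 4 and 5 alone. Against Artificial CD8 they were mt-Rnr2 at -0.95 (adjusted p = 0.00108), mt-Co1 at -0.87 (adjusted p = 0.000999), mt-Co2 at -0.83 (adjusted p = 0.0299), mt-Atp6 at -0.80 (adjusted p = 0.0339), mt-Nd6 at -0.58 (adjusted p = 0.0326) and Atp5g2 at -0.45 (adjusted p = 0.0406). Against CD4+CD8+ they were mt-Rnr2 at -0.048 (adjusted p = 0.894), mt-Cytb at -0.59 (adjusted p = 0.014) and Atp5g2 at -0.63 (adjusted p = 0.017). With the mean of log2 CPM in place of summed CPM, the log2 ratio of complex V moved from 0.47 to -0.25 for iRTE minus splenic CD8, from 0.42 to -0.15 for Artificial minus splenic CD8 and from 0.02 to 0.46 for splenic CD8 minus CD4+CD8+, and that of complex IV from 0.14 to 0.45 for Artificial minus splenic CD8.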
